A study of Mus musculus with 2 samples.

Results

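Steroid receptors and the aryl hydrocarbon receptor (Ahr) sense small lipophilic molecules, and a group of 10 genes was followed here as a check on effects of 4-hydroxytamoxifen (4-OHT) apart from *Runx3*. They were taken by gene symbol, with no threshold on their values. They comprised the estrogen receptor genes *Esr1*, *Esr2* and *Gper1*, the estrogen receptor target genes *Pgr* and *Greb1*, the glucocorticoid receptor gene *Nr3c1*, *Ahr*, and the Ahr target genes *Cyp1a1*, *Cyp1b1* and *Tiparp*. All 10 were found among the 23183 genes listed for each library.

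KPR- is an immortalized mouse cell line from lung cancers that arose without tamoxifen (KPRL/F-TAM(-)). The tumour mice carried Flp ERT2, Tomato*, *Runx3* flox/FSF, *p53* flox/flox and *K-Ras* LSL-G12D/+, and inhaled an adenovirus with *CMV* promoter-driven Cre, which switched on the mutant *K-Ras* and deleted *p53* and the floxed *Runx3* allele. Cells of both libraries share these changes. A Frt-Stop-Frt cassette kept the other *Runx3* allele off in KPR-, whereas 4-OHT activated the Flp recombinase, which removed the cassette and gave KPR_restored. Each condition was sequenced as 1 library, labelled 0 h and RUNX3 -/- for KPR- and 16 h and RUNX3 -/+ for KPR_restored. The labels give 1 μM 4-OHT for both libraries, whereas in the study's results 4-OHT is what distinguishes KPR_restored. No library of cells given 4-OHT without *Runx3* restoration was analysed here, so 4-OHT, time and *Runx3* restoration cannot be told apart.

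Tamoxifen is a ligand of the estrogen receptors, and 4-OHT is its high-affinity metabolite. It blocks or activates the nuclear receptors encoded by *Esr1* and *Esr2* depending on the tissue, and it is an agonist of the membrane receptor encoded by *Gper1*. The ligand-binding domain of an estrogen receptor, mutated so that it answers to 4-OHT, is also the part of Flp ERT2 that makes the recombinase inducible. The Ahr protein waits in the cytoplasm with Hsp90, enters the nucleus when a ligand such as dioxin binds, pairs with Arnt, and switches on *Cyp1a1*, *Cyp1b1* and *Tiparp* from sites called xenobiotic response elements. 4-OHT has been described as a ligand of this receptor as well. *Cyp1a1* and *Cyp1b1* encode cytochrome P450 enzymes that oxidise polycyclic hydrocarbons and estrogens, and *Tiparp* encodes an ADP-ribosyltransferase that feeds back on Ahr.

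The promoters of the 3 Ahr targets are shown, and each holds a core of the xenobiotic response element, GCGTG, once. Where the core is on the opposite strand it reads CACGC. RefSeq sequences of GRCm38.p6 are given 5′ to 3′ on the gene's strand, from 250 bases before the transcript start to 50 bases from it on, with the core in capitals. *Cyp1a1* lies at chr9:57697363-57697662 (plus strand), *Cyp1b1* at chr17:79715012-79715311 (minus strand) and *Tiparp* at chr3:65528197-65528496 (plus strand).
Cyp1a1: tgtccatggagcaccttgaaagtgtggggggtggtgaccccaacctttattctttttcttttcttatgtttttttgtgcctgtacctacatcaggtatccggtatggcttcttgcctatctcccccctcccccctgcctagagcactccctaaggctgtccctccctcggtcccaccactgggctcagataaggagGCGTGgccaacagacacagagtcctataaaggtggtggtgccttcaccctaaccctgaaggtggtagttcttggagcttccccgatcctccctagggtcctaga
Cyp1b1: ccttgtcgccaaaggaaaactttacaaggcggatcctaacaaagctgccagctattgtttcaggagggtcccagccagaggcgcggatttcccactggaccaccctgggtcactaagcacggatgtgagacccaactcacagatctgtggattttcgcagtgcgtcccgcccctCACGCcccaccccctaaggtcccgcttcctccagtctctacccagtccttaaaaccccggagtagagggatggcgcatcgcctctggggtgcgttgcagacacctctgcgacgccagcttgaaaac
Tiparp: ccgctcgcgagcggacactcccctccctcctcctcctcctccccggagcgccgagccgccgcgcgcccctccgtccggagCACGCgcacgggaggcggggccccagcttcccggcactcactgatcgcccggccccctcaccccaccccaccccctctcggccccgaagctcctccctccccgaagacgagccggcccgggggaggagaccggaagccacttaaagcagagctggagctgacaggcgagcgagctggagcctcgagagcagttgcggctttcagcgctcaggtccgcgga
The core began 54 bases before the start in *Cyp1a1*, on the gene's own strand. It began 76 bases before the start in *Cyp1b1* and 170 bases before it in *Tiparp*, both on the other strand. Of all 32851 promoters of this length, 32.4% hold the core on either strand, and the same letters are 1 form of the core that hypoxia-inducible factors bind. Of the 10 genes, 8 had an entry, with 10 promoters between them, and 5 of these 10 held the core. The palindromic estrogen response element GGTCANNNTGACC was in 0 of the 10 and in 0.0700% of all promoters, and the glucocorticoid response element GNACANNNTGTNC was in 0 of the 10 and in 0.475% of all. A single arm of the estrogen element, GGTCA, was in 6 of the 10 on either strand and in 40.5% of all, once each in *Cyp1a1* and *Cyp1b1*, where it is not in capitals. A match in these windows is a description of letters, and enhancers farther away were not searched.

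The deposited values are FPKM, the authors' estimate of fragments per kilobase of transcript, scaled to the number of mapped fragments. The steps of low FPKM values put KPR- at a depth near 21.8 M fragments and KPR_restored near 22.5 M, and from these and the longest RefSeq-matched transcript the fragments behind each value were estimated. All intervals are 95% intervals from these fragments (exact Poisson for a level, exact Clopper-Pearson for a log2 ratio) and cover counting error only, because the variation between cultures was not measured. *Runx3* itself was at 0.348 FPKM in KPR- and 0.349 FPKM in KPR_restored, about 28 and 29 fragments, so its total level does not check the labels, and every direction below is that of the library labelled KPR_restored. All 7 epithelial markers reached a mean of 1 FPKM (*Epcam* at 105 and 91.6 FPKM, *Krt8* at 1711 and 1631 FPKM), with *Cldn4* higher (107 and 202 FPKM) and *Krt7* lower (1229 and 743 FPKM) in KPR_restored by more than 0.5 on the log2 scale. Of the 8 alveolar type 2 markers 5 were listed at 0 in both libraries, *Sftpc* and *Sftpb* among them, while *Abca3* was at 18.2 and 14.6 FPKM, *Sftpd* had about 10 and 9 fragments and *Nkx2-1*, a lung lineage factor, about 3 and 1. All 3 club cell markers were listed at 0. The 5 leukocyte markers summed to 3.08 FPKM in KPR- and 6.79 FPKM in KPR_restored, nearly all from *Cd68*, with *Ptprc*, the general leukocyte marker, at 0 and at 1 fragment. The 4 endothelial markers summed to 1.16 and 2.22 FPKM, with *Kdr* at 1.10 and 2.05 FPKM, *Cdh5* at 0 and 12 fragments, *Pecam1* at 4 and 2 fragments and *Tek* at 0. The part of these markers in the differences that follow was not tested.

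**Figure D1:**
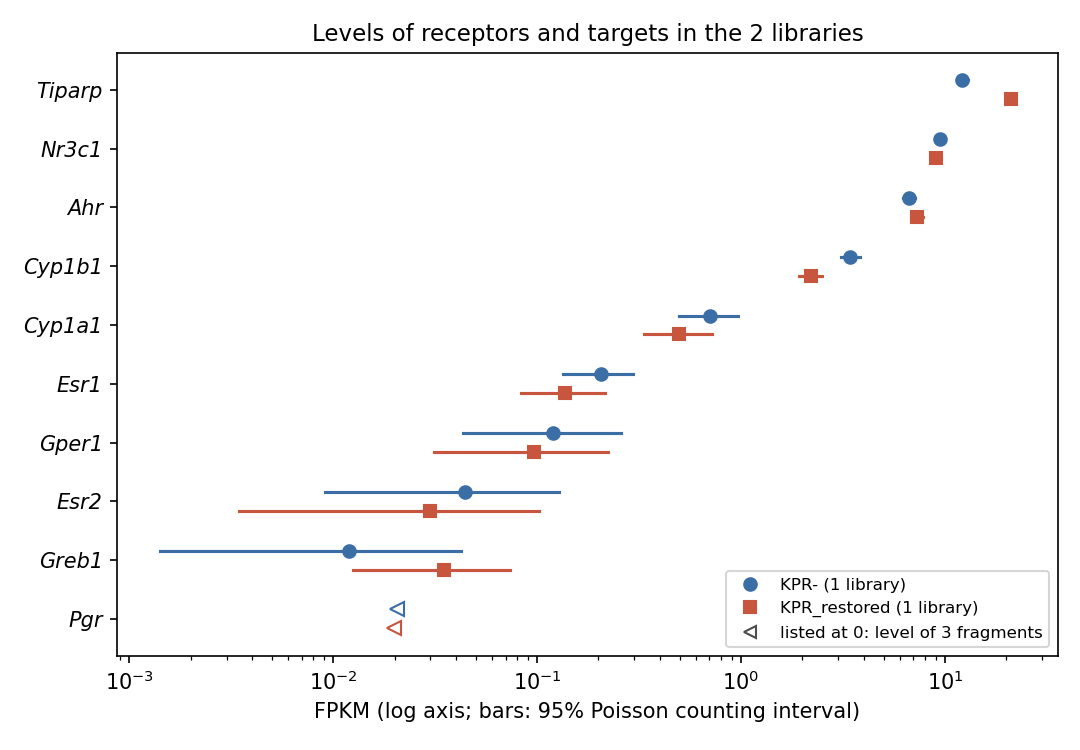
FPKM (log axis) of the 10 genes in the KPR- library (circles) and the KPR_restored library (squares), with bars for the 95% Poisson counting interval and open triangles at the level of 3 fragments for Pgr, which was listed at 0. Tiparp, Nr3c1, Ahr and Cyp1b1 lay above 2 FPKM in both libraries, and the estrogen receptor genes lay below 0.21 FPKM.

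The cells expressed *Ahr* and *Nr3c1* at mid-range levels and hardly any estrogen receptor mRNA. By mean FPKM the order was *Tiparp*, *Nr3c1*, *Ahr*, *Cyp1b1*, *Cyp1a1*, *Esr1*, *Gper1*, *Esr2*, *Greb1* and *Pgr*. The counting intervals of neighbours were apart in both libraries from *Tiparp* down to *Esr1*, and overlapped in both libraries for each pair of neighbours from *Esr1* down to *Pgr*. *Tiparp* had a higher mean than 70.1% of the 16508 genes above 0 in either library, *Nr3c1* than 57.6%, *Ahr* than 52.2%, *Cyp1b1* than 40.1% and *Cyp1a1* than 28.7%. *Esr1* stood above 20.4% of them, *Gper1* above 17.3%, *Esr2* above 10.2% and *Greb1* above 7.33%.

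Differences are log2(FPKM + 0.005) in KPR_restored minus that in KPR-, and the threshold is 0.5 either way. This scale understates the change of genes near the pseudocount. In bulk RNA, fewer cells that express a gene and less RNA per cell cannot be told apart. Of the 10 genes, 2 lay at 0.5 or above (*Tiparp* and *Greb1*) and 2 at -0.5 or below (*Cyp1b1* and *Esr1*), against 13.8% of all 23183 genes higher and 12.9% lower. The share past the threshold depends strongly on the level. Among the 11231 genes at a mean of 1 FPKM or more, 12.1% were higher and 9.29% lower, and of the 4 genes of the group at that level 1 was higher (*Tiparp*) and 1 was lower (*Cyp1b1*). At a threshold of 1, 2.89% of the 11231 were higher and 1.38% lower. Among the 5277 genes with a mean above 0 and under 1, 34.8% were higher and 37.1% lower. Of the 6 genes of the group under 1, including *Pgr* at 0, 1 was higher (*Greb1*) and 1 was lower (*Esr1*).

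A counting interval without 0 was a more common event than passing the threshold. Over both libraries, 13025 genes had 10 or more estimated fragments, and the interval lay above 0 for 30.5% and below 0 for 29.9%. Of the 7 genes of the group with as many fragments, it lay above 0 for *Tiparp* and below 0 for *Cyp1b1*, and included 0 for *Ahr*, *Nr3c1*, *Cyp1a1*, *Esr1* and *Gper1*.

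**Figure D2:**
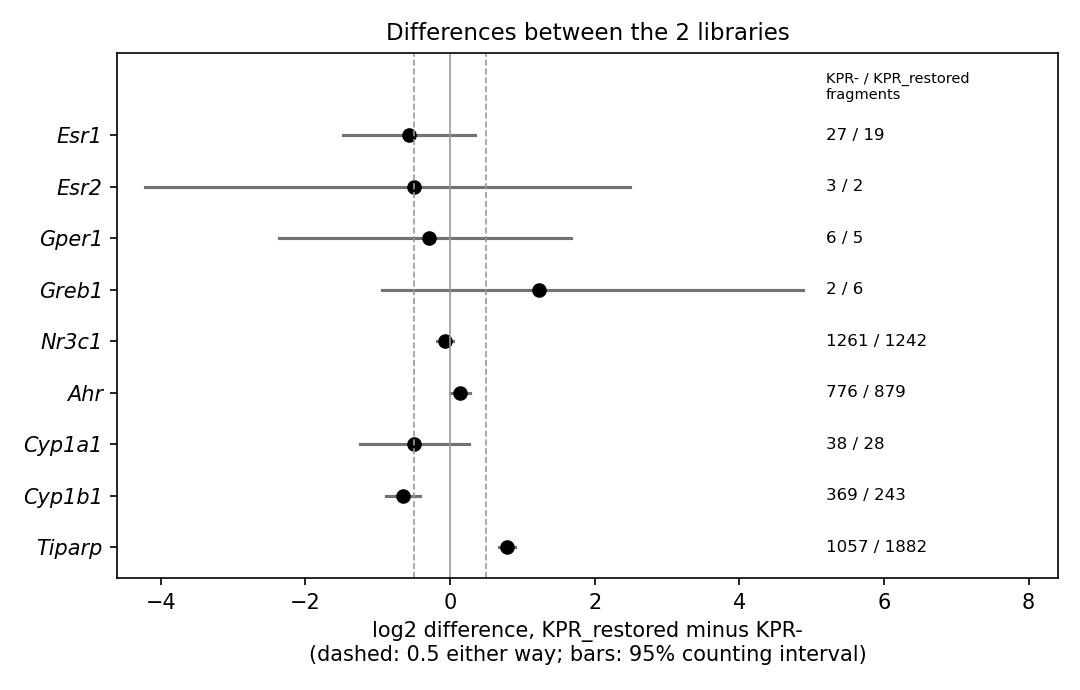
Log2 differences (dots, x axis) of the 9 genes above 0, KPR_restored minus KPR-, with the 95% counting interval of the log2 ratio of estimated fragments (bars), the threshold of 0.5 either way (dashed lines) and the estimated fragments of KPR- and KPR_restored at the right. The bars of Tiparp and Cyp1b1 exclude 0, and those of Esr2, Gper1 and Greb1 are wide because they rest on 2 to 6 fragments per library.

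The estrogen receptor genes were at low levels, and *Esr2* and *Gper1* were close to the limit of detection. *Esr1*, which encodes estrogen receptor alpha, spans bases 4611593 to 5005614 of chromosome 10 in GRCm38 (plus strand) and was at 0.205 FPKM in KPR- and 0.137 FPKM in KPR_restored. The longest transcript, of 6339 bases, makes these about 27 and 19 fragments, and the shortest, of 2612 bases, 11 and 7. The library labelled KPR_restored was the lower of the pair, with a log2 difference of -0.57 (counting interval -1.48 to 0.35), so a change was not detectable at this depth. The level is that of mouse *Esr1* as mapped by the authors. Whether fragments of the receptor domain in the Flp ERT2 transgene were counted with it was not tested.

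*Esr2*, which encodes estrogen receptor beta, spans bases 76120419 to 76177259 of chromosome 12 (minus strand). Its FPKM was 0.0442 in KPR- and 0.0300 in KPR_restored, or about 3 and 2 fragments. *Gper1*, which encodes a G protein-coupled receptor for estrogen at membranes, spans bases 139423151 to 139427800 of chromosome 5 (plus strand) and was at 0.119 and 0.0966 FPKM, about 6 and 5 fragments. Their log2 differences of -0.49 and -0.29 had counting intervals of -4.21 to 2.50 and -2.36 to 1.67. All 3 estrogen receptor genes had the lower value in KPR_restored, with an interval that included 0 in each case. Of the genes with a mean FPKM above 0 and under 1, 35.5% were lower by as much as *Esr1*, 37.3% by as much as *Esr2* and 42.2% by as much as *Gper1*.

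The estrogen receptor targets were at or near 0. *Pgr*, the progesterone receptor gene and a classical target of estrogen receptor alpha, spans bases 8899833 to 8968611 of chromosome 9 (plus strand) and was listed at 0 in both libraries. A count of 0 allows up to 3 fragments, or 0.0206 FPKM in KPR- and 0.0200 FPKM in KPR_restored. The upper ends of its Poisson intervals, which the order of levels uses, are higher, at 0.0253 and 0.0246 FPKM. *Greb1*, an estrogen-induced gene whose product is a cofactor of that receptor, spans bases 16670615 to 16800886 of chromosome 12 (minus strand). It was at 0.0120 FPKM in KPR- and 0.0348 FPKM in KPR_restored, about 2 and 6 fragments, a log2 difference of 1.23 (counting interval -0.94 to 4.88). A difference of this size or larger upward was found for 22.4% of the genes with a mean FPKM above 0 and under 1.

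*Nr3c1*, which encodes the glucocorticoid receptor, differed least of the 9 genes above 0. It spans bases 39410545 to 39519421 of chromosome 18 (minus strand), and its FPKM was 9.46 in KPR- and 9.03 in KPR_restored, from about 1261 and 1242 fragments. The log2 difference was -0.067, with a counting interval of -0.18 to 0.047 that lies inside the threshold. With the shortest coding transcript of 377 bases the fragments would be 34 and 33 and the interval -0.82 to 0.65.

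*Ahr* spans bases 35497974 to 35535038 of chromosome 12 (minus strand) and was at 6.67 FPKM in KPR- (6.21 to 7.16 by counting) and 7.33 FPKM in KPR_restored (6.85 to 7.82), from about 776 and 879 fragments. The log2 difference was 0.14 with a counting interval of -0.0067 to 0.28. The receptor was thus present in both libraries at levels that differed by less than the threshold, and 36.3% of the genes at a mean of 1 FPKM or more were higher by as much.

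The 3 Ahr targets did not move together. *Tiparp* spans bases 65528410 to 65555518 of chromosome 3 (plus strand), and its FPKM was 12.2 in KPR- (11.5 to 12.9 by counting) and 21.03 in KPR_restored (20.09 to 21.999), from about 1057 and 1882 fragments. This was a 1.73-fold higher level in KPR_restored, a log2 difference of 0.79 (counting interval 0.68 to 0.90). Of the genes at a mean of 1 FPKM or more, 5.13% were higher by as much. With the shortest coding transcript of 827 bases the fragments would be 163 and 291, and the interval of 0.51 to 1.08 still excludes 0.

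*Cyp1b1* spans bases 79701537 to 79715061 of chromosome 17 (minus strand) and was at 3.44 FPKM in KPR- (3.10 to 3.81 by counting) and 2.20 FPKM in KPR_restored (1.93 to 2.49), from about 369 and 243 fragments. Its level in KPR_restored was 1.56-fold lower, a log2 difference of -0.64 (counting interval -0.89 to -0.41). Of the genes at a mean of 1 FPKM or more, 5.25% were lower by as much. With the shortest coding transcript of 3398 bases the fragments would be 239 and 158, and the interval of -0.94 to -0.35 still excludes 0. The 6 fibroblast and mesenchymal markers did not share a direction. *Col1a1* was at 12.2 and 4.21 FPKM, *Vim* at 1777 and 1464 FPKM, *Dcn* at about 6 and 26 fragments, *Pdgfra* at 39 and 54 fragments and *Col1a2* at 5 and 2, and *Lum* was listed at 0. They summed to 1790 FPKM in KPR- and 1469 FPKM in KPR_restored, nearly all *Vim*, and their part in the difference of *Cyp1b1* was not tested.

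*Cyp1a1*, the most widely used readout of Ahr activity, spans bases 57687928 to 57703824 of chromosome 9 (plus strand). It was at 0.701 FPKM in KPR- (0.497 to 0.963 by counting) and 0.497 FPKM in KPR_restored (0.333 to 0.724), about 38 and 28 fragments. The log2 difference was -0.49 with a counting interval of -1.24 to 0.26. Its difference was just inside the threshold, as was that of *Esr2*, and both passed it under scaling to the same upper quartile or centring on the median gene. The value leaned in the direction of *Cyp1b1* and away from *Tiparp*, and the interval of *Cyp1a1* overlaps that of *Cyp1b1* and not that of *Tiparp*.

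The divergence is plainest as ratios of FPKM levels. *Tiparp* stood at 3.54 times *Cyp1b1* in KPR- and at 9.56 times in KPR_restored, and at 17.4 times *Cyp1a1* in KPR- and 42.3 times in KPR_restored. The level of *Cyp1a1* relative to *Cyp1b1* was 0.204 and 0.226. Relative to *Ahr* itself, *Tiparp* went from 1.83 to 2.87 and *Cyp1b1* from 0.516 to 0.3003.

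**Figure D3:**
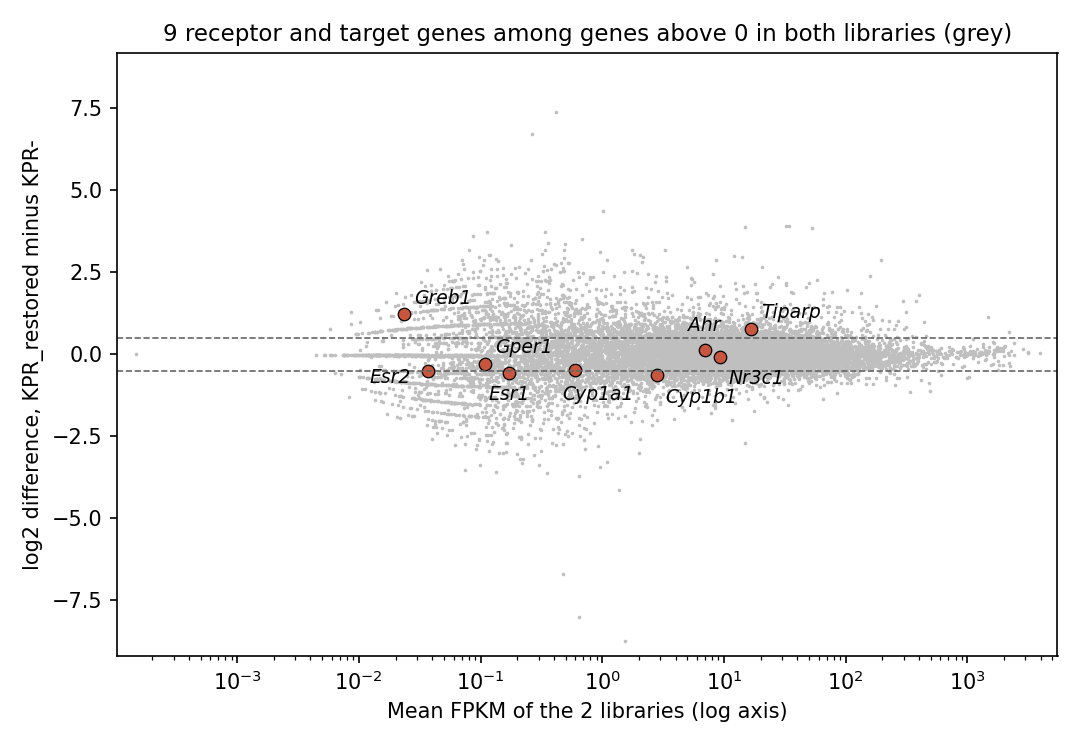
Log2 difference (y axis, KPR_restored minus KPR-) against mean FPKM (x axis, log) for 14874 genes above 0 in both libraries (grey), with the 9 genes above 0 marked and the threshold of 0.5 either way dashed. The spread of all genes widens toward low levels, where Greb1, Esr2, Gper1, Esr1 and Cyp1a1 lie, and Tiparp and Cyp1b1 lie outside the dashed lines where the spread is narrower.

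The wider Ahr pathway was described with a list of 20 genes that includes *Ahr* and its 3 targets above. Of the 12 members at a mean of 1 FPKM or more, 5 were higher and 2 lower by 0.5 or more, and their median log2 difference was 0.24, against 0.0086 over all 11231 genes at that level. Of those 11231 genes, 12.1% were higher and 9.29% lower. The partner and the repressor of the receptor differed by less than the threshold. *Arnt*, the DNA-binding partner of Ahr, was at 13.4 and 16.9 FPKM (log2 difference 0.33). *Ahrr*, the Ahr repressor and itself an Ahr target, had 0.142 and 0.157 FPKM, about 14 and 16 fragments.

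The 5 higher genes of the list were *Nqo1*, *Ugt1a6b*, *Serpinb2*, *Tiparp* and *Nfe2l2*. *Nqo1*, a quinone reductase that is also a target of NRF2, was at 1.12 FPKM in KPR- and 3.28 FPKM in KPR_restored, a log2 difference of 1.54 from about 33 and 99 fragments. *Ugt1a6b*, a glucuronosyltransferase whose transcripts share most exons with the rest of its locus so that its value is uncertain, was at 1.32 and 3.06 FPKM (1.21). *Serpinb2*, a plasminogen activator inhibitor, was at 0.881 and 1.68 FPKM (0.93), and *Nfe2l2*, which encodes NRF2, was at 63.9 and 109 FPKM (0.77). Beside *Cyp1b1*, the other lower gene was *Cyp2s1*, a dioxin-inducible P450, at 24.8 and 15.1 FPKM (-0.72). Within the threshold were *Aldh3a1*, at 61.1 and 56.9 FPKM (-0.10), and *Ugt1a6a*, at 4.87 and 5.38 FPKM (0.14). *Ugt1a6a* belongs to the same locus as *Ugt1a6b*, so its value is uncertain for the same reason. *Cyp1a2* and *Il22* were listed at 0 in both libraries. All 3 detected P450 genes of the list thus had the lower value in KPR_restored, and the interval of *Cyp1a1* included 0. With no filter on level, 7 genes of the list were higher and 2 lower.

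A list of 24 estrogen receptor target genes, *Pgr* and *Greb1* among them, split in both directions. Of the 16 at a mean of 1 FPKM or more, 7 were higher and 3 were lower by 0.5 or more, and the median was 0.31. Over all genes at that mean, 12.1% were higher and 9.29% lower, with a median of 0.0086. *Areg*, an EGF receptor ligand, was at 28.7 FPKM in KPR- and 105 FPKM in KPR_restored (log2 difference 1.87), and *Stc2*, a secreted glycoprotein that is also induced by stress of the endoplasmic reticulum, was at 6.66 and 19.8 FPKM (1.57). *Kcnk5*, a potassium channel gene, was at 9.71 and 5.58 FPKM (-0.80), and *Ccnd1*, which encodes cyclin D1, was at 331 and 203 FPKM (-0.71). Growth factor signalling also controls *Areg* and *Ccnd1*. Larger falls lay below a mean of 1 FPKM. *Cxcl12* was at 1.34 FPKM in KPR- and 0.250 FPKM in KPR_restored (-2.40), *Myb* at about 30 and 11 fragments (-1.50) and *Igf1* at about 23 and 0 fragments. In the other direction, *Rapgefl1* was at about 39 and 69 fragments (0.79). With no filter on level, 9 genes of the list were higher and 7 lower.

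A list of 20 glucocorticoid receptor target genes had the highest median of the 9 lists compared. The lists were written with earlier results of these data known, so this rank only describes the genes chosen. Of the 16 members at a mean of 1 FPKM or more, 9 were higher and 2 were lower by 0.5 or more, with a median of 0.63, while *Nr3c1* itself had a difference of -0.067. The shares over all genes at that mean were 12.1% higher and 9.29% lower, with a median of 0.0086. *Dusp1*, a MAP kinase phosphatase and immediate-early gene, was at 9.23 FPKM in KPR- and 38.4 FPKM in KPR_restored (log2 difference 2.06), and *Mt2*, a metallothionein that also answers to metals and oxidants, was at 57.4 and 210 FPKM (1.87).

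The other 7 of the 9 higher genes were *Tsc22d3*, *Mt1*, *Ddit4*, *Cebpd*, *Lcn2*, *Klf9* and *Errfi1*, between 0.53 and 1.67. *Tsc22d3*, which encodes the glucocorticoid-induced leucine zipper protein, was at 8.85 and 28.2 FPKM (1.67). The 5 genes within the threshold were *Per1*, a clock gene, at 4.32 and 5.92 FPKM (0.45), *Sgk1* (0.29), *Nfkbia* (0.19), *Angptl4* (0.15) and *Glul* (-0.22). The 2 lower genes differ in how they answer to glucocorticoids. *Fkbp5*, an induced cochaperone that restrains the receptor, was at 32.7 and 21.3 FPKM (-0.62), and *Ccl2*, a chemokine gene that glucocorticoids repress, was at 334 and 176 FPKM (-0.93). Below a mean of 1 FPKM, *Pdk4* was lower in KPR_restored, at about 67 and 29 fragments (-1.24). With no filter on level, 10 genes of the list were higher and 4 lower.

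The other receptors on which steroids or 4-OHT could act showed small differences. Of 10 further steroid and estrogen-related receptor genes, 8 reached a mean of 1 FPKM and 0 passed the threshold, with a median of -0.16. Among all genes at that mean, 12.1% were higher and 9.29% lower. *Esrra*, which encodes an estrogen-related receptor without a known steroid ligand, was at 24.97 and 30.7 FPKM (log2 difference 0.30). *Esrrg* and *Esrrb*, whose products bind 4-OHT directly, were listed at 0 in both libraries. The mineralocorticoid receptor gene *Nr3c2* was at 3.03 and 3.34 FPKM (0.14). The progesterone receptor membrane component gene *Pgrmc2* was at 44.8 and 34.4 FPKM (-0.38), and the membrane progesterone receptor gene *Paqr5* was at 4.99 and 4.09 FPKM (-0.29).

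The 17 coregulators and chaperones of steroid receptors all reached a mean of 1 FPKM, and 0 were higher and 1 was lower by 0.5 or more, with a median of -0.21. Among all genes at that mean, 12.1% were higher and 9.29% lower. The lower gene was *Fkbp5*, which is on the glucocorticoid list as well. *Hsp90aa1* and *Hsp90ab1*, which hold both the steroid receptors and Ahr in a state that binds ligand, were at 666 and 551 FPKM (-0.27) and at 2010 and 1601 FPKM (-0.33). *Hspa8*, which passes receptors to Hsp90, was at 2068 and 1489 FPKM (-0.47), and *Fkbp4*, an Hsp90 cochaperone, was at 256 and 221 FPKM (-0.21). *Ncoa1* and *Ncoa3*, coactivators of steroid receptors, had the 2 highest differences, 0.29 and 0.24. As a comparison, 15 reference genes had a median of -0.11, with 0 higher and 1 lower (*Tfrc*).

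**Figure D4:**
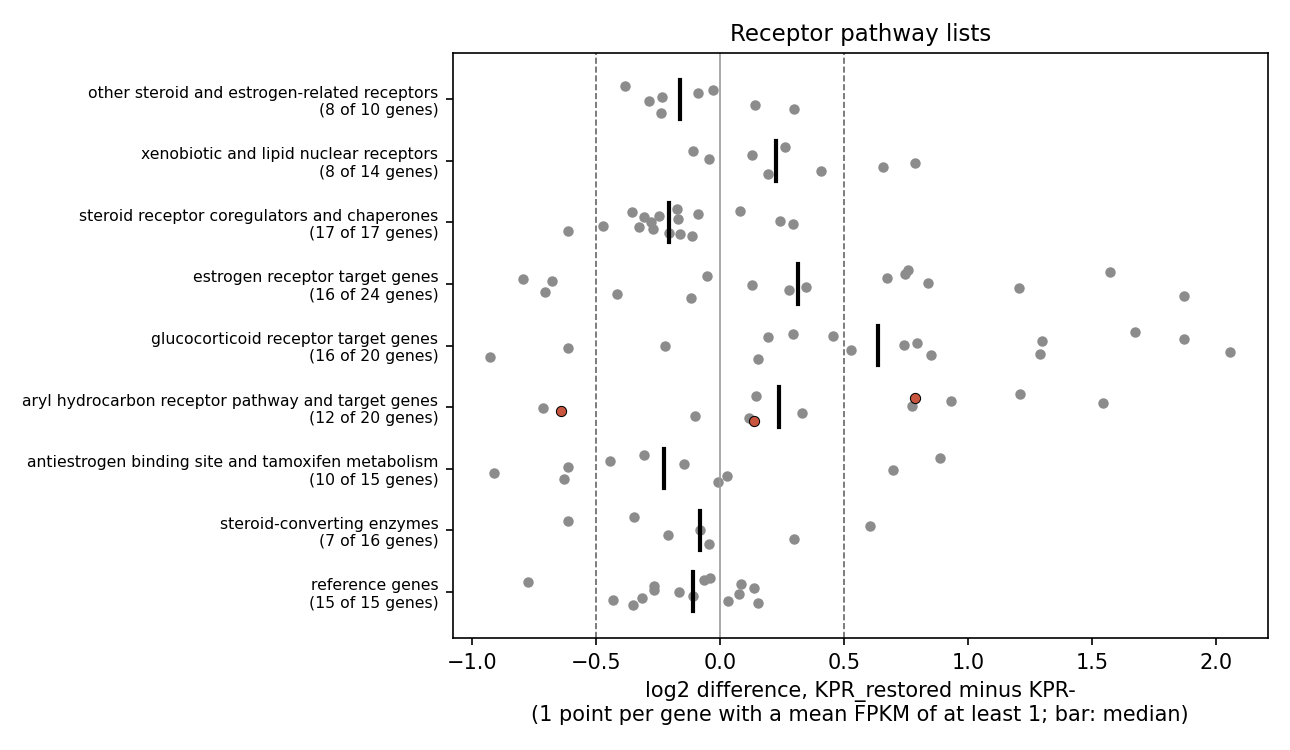
Log2 differences (x axis, KPR_restored minus KPR-) of the genes at a mean of 1 FPKM or more in 9 lists (rows, 1 point per gene), with a bar at each list's median, the threshold of 0.5 either way dashed and genes of the group of 10 in red. The glucocorticoid target list has the highest median, 0.63, and Tiparp and Cyp1b1 lie on opposite sides of the Ahr list, beyond the dashed lines. The lists were written with earlier results of these data known.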

How the data were processed

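Directional libraries of poly(A)-selected RNA, 1 of KPR- and 1 of KPR_restored, were sequenced from both ends. After trimming, the authors used TopHat for mapping (mm10 in the submitters' processing notes) and estimated FPKM using Cufflinks, and they deposited 1 FPKM value per gene and library. The methods also name a geometric normalization of read counts, and whether it entered these values, the versions and the annotation are not given in the sources used here. Symbols were matched to GENCODE M21 (GRCm38) for 22148 of 23183 genes. Depth and mean fragment length (214 bases) were those that placed most low FPKM values of genes with a single transcript length above 1000 bases on whole fragments. Of values worth 0.5 to 5.5 fragments, 80.5% in KPR- and 80.7% in KPR_restored lay within 0.1 of a whole number, where evenly spread values would give 20%. Estimated fragments were rounded, for genes with an effective length of at least 100 bases. The estimate and the intervals were tested on simulated Poisson counts with 1 length per gene, which follow the form that the estimate assumes. Genes with several transcripts and the geometric normalization were not simulated, so the simulation cannot show how well the estimate holds for them. With 1 library per condition no test was run. Members and lists were chosen with earlier results of these data known. Besides the 10 genes, the 2 largest differences in each direction of each list (mean FPKM of at least 1) and cofactors chosen by name are given, and some of these are not reported here. Genes named after their values were seen are *Nfe2l2*, *Cyp1a2*, *Il22*, *Tfrc*, *Cyp19a1*, *Nr1i3*, *Serpinb2*, *Mt1*, *Ddit4*, *Cebpd*, *Lcn2*, *Klf9*, *Errfi1*, *Cxcl12*, *Myb*, *Igf1*, *Rapgefl1*, *Sgk1*, *Nfkbia*, *Angptl4*, *Glul*, *Pdk4*, *Aldh3a1*, *Ugt1a6a* and *Rarb*. Alternatives were pseudocounts of 0.1 and 1, a threshold of 1, filters on mean FPKM of 0.1, 1 and 5, 3 scalings, estimated fragments and shorter transcripts. Intervals came from scipy 1.17.1, tables from pandas 2.3.3 and numpy 2.4.6, and plots from matplotlib 3.10.9, under Python 3.11.15.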

Additional observations from a re-analysis of the deposited data

How the results depend on the processing

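The log2 differences of the 9 genes above 0 stayed within their counting intervals under all 54 recomputations (6 per gene: pseudocounts of 0.1 and 1, the same FPKM total, the same upper quartile, median centring and estimated fragments). Most of these could hardly have left the interval. The estimated fragments are what it is built on, and the scalings shift values little. Larger pseudocounts pull values toward 0, which every interval except those of *Tiparp* and *Cyp1b1* includes. With a pseudocount of 1, *Tiparp* was at 0.74 and *Cyp1b1* at -0.47, inside 0.68 to 0.90 and -0.89 to -0.41. No choice of transcript changed whether an interval excluded 0. The transcript with a RefSeq counterpart was added after the values were seen, and for *Greb1* the shortest coding transcript gave no interval. Counts over the 10 genes moved, since several values lie near the threshold. The number higher, 2, was 1 with pseudocounts of 0.1 and 1, a threshold of 1, and a mean FPKM of at least 0.1 or at least 1. The number lower, 2, was 1 with a pseudocount of 0.1 and with a mean FPKM of at least 1. It was 0 with a pseudocount of 1, where *Cyp1b1* was at -0.47 on the log2 scale, and with a threshold of 1, and 4 with the upper quartile and with median centring. At a threshold of 1 the list counts higher and lower were 3 and 0 for estrogen targets, 5 and 0 for glucocorticoid targets, and 2 and 0 for the Ahr list, where 2.89% of all genes at a mean FPKM of at least 1 were higher and 1.38% lower. Estrogen targets lower numbered 6 at a mean FPKM of at least 0.1 and 7 with no filter, with medians of 0.20 and 0.063. Glucocorticoid targets lower numbered 4 with no filter, and the median was 0.53 at a mean FPKM of at least 0.1 and 0.49 with no filter. On the Ahr list 2 were higher and 1 lower at a mean FPKM of at least 5, and 1 was lower with a pseudocount of 1. No scaling moved the median gene by more than 0.034 on the log2 scale. Depth limits *Esr1*, *Esr2*, *Gper1*, *Greb1*, *Pgr* and *Cyp1a1*, for which the counting interval includes 0 or the value is 0. No paired analysis was possible because each condition has 1 library, and for the same reason no replicate could be left out.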

Other observations

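Genes of tamoxifen handling were described with a list of 15 genes, of which 10 had a mean FPKM of at least 1. Of these, 2 were higher and 3 were lower by 0.5 or more, with a median log2 difference of -0.23. Over all genes at that mean, 12.1% were higher and 9.29% lower, with a median of 0.0086. The same shares are the comparison for the enzyme and nuclear receptor lists below. *Ebp* and *Dhcr7*, sterol enzymes whose products together form a high-affinity binding site for tamoxifen apart from the estrogen receptors, were at 87.3 and 64.2 FPKM (-0.44) and at 25.2 and 22.8 FPKM (-0.15). The drug exporter genes *Abcg2* and *Abcb1b* were at 11.4 and 6.07 FPKM (-0.91) and at 40.2 and 26.0 FPKM (-0.63). *Sult2b1*, a sterol sulfotransferase gene, was at 14.4 and 26.5 FPKM (0.88), and *Cyp3a13*, a P450 of the family that oxidises tamoxifen, was at 4.58 and 7.42 FPKM (0.70).

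Of 16 genes of steroid-converting enzymes, 15 were matched to a value and 7 of these had a mean FPKM of at least 1, and 1 was higher and 1 was lower by 0.5 or more, with a median of -0.081. *Srd5a1*, a steroid 5-alpha-reductase gene, was at 15.7 and 10.3 FPKM (-0.61), and *Srd5a3* was at 17.3 and 13.6 FPKM (-0.35). *Hsd17b7*, which acts in cholesterol synthesis and on estrone, was at 8.22 and 12.5 FPKM (0.60), and *Hsd17b11* was at 48.8 and 59.9 FPKM (0.30). *Cyp19a1*, the aromatase gene, was listed at 0 in both libraries.

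Among 14 nuclear receptor genes for xenobiotics, lipids and retinoids, 8 had a mean FPKM of at least 1, with 2 higher and 0 lower and a median of 0.23. *Pparg*, a fatty acid receptor gene, was at 17.2 and 29.7 FPKM (0.78), and *Ppard* was at 15.6 and 24.5 FPKM (0.66). *Rxra* and *Rara*, retinoid receptor genes, were at 14.4 and 13.3 FPKM (-0.11) and at 13.3 and 12.9 FPKM (-0.045). Below a mean of 1 FPKM, *Rarb*, a further retinoid receptor gene, was at about 16 and 4 fragments (-2.16, counting interval -4.08 to -0.41). With no filter on level, 4 genes of the list were higher and 1 lower. *Nr1i3*, which encodes the xenobiotic receptor CAR, was listed at 0 in both libraries.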
